A study of Drosophila melanogaster with 8 samples.

Results

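The last steps of respiration are carried out by complex III (cytochrome bc1), cytochrome c, complex IV (cytochrome c oxidase) and complex V (ATP synthase) of the mitochondrial inner membrane. To find out how the nuclear genes for these proteins respond when REPTOR is active in muscle, 32 genes were picked by symbol from the 17562 genes in the files. They comprise 9 genes of complex III, the somatic cytochrome c gene Cyt-c-p, 9 genes of complex IV and 13 genes of complex V. The rule used gene symbols only, but the list was drawn up with earlier results of these data known.

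Complex III passes electrons from ubiquinol to cytochrome c, complex IV passes them on to oxygen, and both pump protons. Complex V lets the protons flow back and uses their energy to make ATP. A few core subunits of each complex are encoded by the mitochondrial genome, and the rest, which are described here, are made in the cytosol and imported. Insect flight muscle is packed with mitochondria, and its work rests almost wholly on this pathway.

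Poly-A RNA was sequenced from thoraces of adult male flies of 2 genotypes, with 4 libraries each. In the REPTOR[ACT] group (tub-Gal80ts/UAS-REPTOR[ACT]; dMef2-GAL4/+), dMef2-GAL4, a driver for muscle, switched on an always active allele of REPTOR, a transcription factor held back by TOR signalling. For the control group (tub-Gal80ts/+; dMef2-GAL4/+) the driver line was crossed to w[1118], so both groups carried the driver and the temperature-sensitive GAL80. Crosses were kept at 18 °C, where GAL80 blocks the driver, males were held there for another 3 to 4 days, and each library came from 5 to 6 pooled thoraces after 4 days at 29 °C. The days of holding are those of the labels, and the study's methods give a longer hold for this driver. Whether the libraries of a group came from separate crosses is not given, so p-values measure the spread between these libraries. A thorax also holds cells other than muscle, such as fat body, nerve and trachea.

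The 4 REPTOR[ACT] libraries held 29.07 to 42.74 M reads, against 26.79 to 50.03 M in the 4 control libraries (M, 1e6), taken as 4 times the deposited values. REPTOR mRNA, transgene and endogenous gene together, stood at 337, 289, 270 and 306 counts per 1e6 reads (CPM, scaled with TMM factors) in REPTOR[ACT], against 101, 132, 92.5 and 97.2 CPM in control. Of 11 muscle markers, 5 rose and 1, the thick filament gene Mf, fell (defined in the next paragraph), where 24.8% of all genes tested rose and 19.4% fell. The summed level of the 11 was 33207 to 36445 CPM in REPTOR[ACT], against 26082 to 28413 CPM in control. This sum is a net of unlike changes. From control to REPTOR[ACT], mean CPM went from 382 to 3360 for Act88F, 5635 to 9651 for Mhc, 3074 to 6685 for Mlc2 and 7984 to 2375 for Mf. The genes up and wupA also rose, and sls, bt, TpnC4, salm and fln were not called. Fat body markers summed to 4332 to 6306 CPM in REPTOR[ACT], against 3877 to 5398 CPM in control. Of the 5, Fbp1 and Fbp2 were too low to test, and none of the 3 tested was called. Log2 fold changes were 0.16 for apolpp, 0.13 for FASN1 and 1.48 for Lsp2 (edgeR adjusted p = 0.139). Lsp2 averaged 387 CPM in REPTOR[ACT] and 139 CPM in control, was higher in all 4 same-numbered pairs, and was called without control replicate 1 (edgeR adjusted p = 0.041). Of 5 haemocyte markers, NimC1 rose (log2 fold change 0.87) and Hml fell (−0.28, a call lost in 2 of 16 alternative settings). Their sums were 338 to 426 CPM in REPTOR[ACT], against 420 to 473 CPM in control, over all 5. Of 5 neuron markers, nSyb fell (−0.19, edgeR adjusted p = 0.047), but its groups overlapped and the call was lost in 8 of 16 alternative settings. The 5 summed to 609 to 708 CPM in REPTOR[ACT], against 656 to 764 CPM in control. No glia or trachea marker was called, and the 5 gut and 6 testis markers were each at 0 or below 1 CPM on average. Transcripts of the mitochondrial genome took 31.6 to 34.1% of the reads in REPTOR[ACT], against 38.7 to 42.2% in control replicates 2 to 4 and 30.4% in control replicate 1. The part of these shifts in the results below was not tested. In whole thoraces, fewer cells of a type and less RNA per cell cannot be told apart.

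About as many members moved as in the transcriptome at large, but mainly one way. A gene is said below to have risen or fallen when the Benjamini-Hochberg adjusted p of edgeR's quasi-likelihood test was under 0.05, a threshold passed by 44.2% of the 9903 genes tested. All 32 members were tested, since each had at least 1579 reads in every library, and none was set aside as too low. Of these 32, 16 fell and 2 rose. Among all genes tested, 19.4% fell and 24.8% rose. The members' median log2 fold change was −0.19, against −0.0090 for all genes tested. Members are highly expressed, and among the 1237 genes that averaged 100 CPM or more, 22.8% fell and 33.9% rose, with a median of 0.065.

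The changes were small. They spanned −0.60 to 0.41 on the log2 scale, and 0 of 32 members also had an absolute log2 fold change above 1, the study's added limit, which 6.88% of all genes passed. In 16 of the 32 members (50%), the 4 libraries of one group did not overlap the 4 of the other, 14 of them lower and 2 higher in REPTOR[ACT], and this was so in 41.9% of all genes tested. With the replicate number as a block, 16 members fell and 4 rose. Same-numbered libraries deviated together most clearly for replicates 1 and 2. For replicates 3 and 4, the correlation with the same number (0.220 and 0.137) did not exceed that with another number (0.221).

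**Figure D1:**
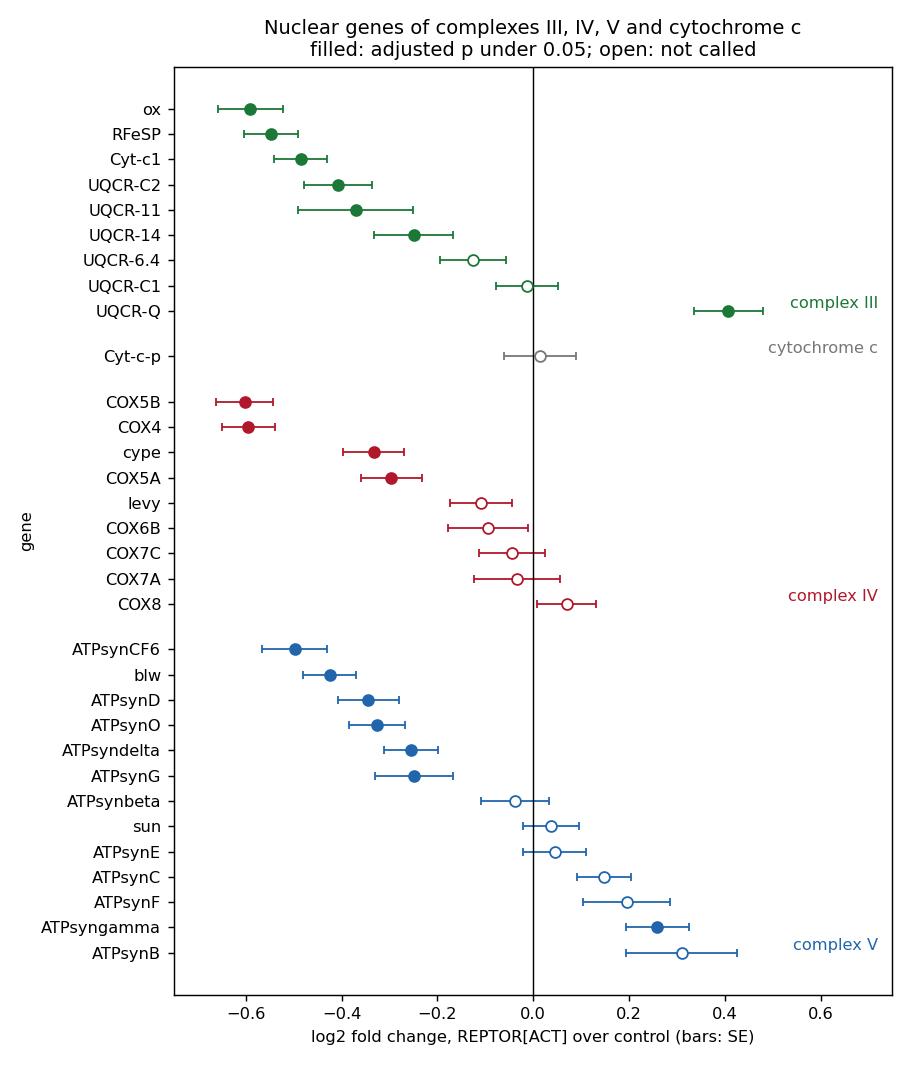
Log2 fold change of each member, REPTOR[ACT] over control, with the standard error (SE) as bars, ordered within each complex. Filled points passed an adjusted p of 0.05 and open points did not. Values run from −0.60 for COX5B to 0.41 for UQCR-Q, and 23 of the 32 points lie below 0.

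In complex III, 6 of 9 genes fell and 1 rose, where 19.4% of all genes tested fell and 24.8% rose. The largest decrease was that of ox (oxen, FBgn0011227, chromosome arm 2R, 12757133 to 12757529 in BDGP6.54), a small subunit of the complex. Its level was 316, 345, 289 and 306 CPM in REPTOR[ACT], against 477, 449, 498 and 468 CPM in control. The groups were well apart, and the log2 fold change was −0.59 (SE 0.067, edgeR adjusted p = 2.8e-05). Of the exon bases of ox, 12.4% are shared with mRpL18 on the opposite strand, a gene at 17.2 CPM in REPTOR[ACT] and 25.7 CPM in control.

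RFeSP (FBgn0021906, 2L, 1612429 to 1614160) encodes the Rieske iron-sulfur protein, which takes the electrons from ubiquinol. Levels were 863, 867, 775 and 825 CPM in REPTOR[ACT], against 1219, 1195, 1242 and 1207 CPM in control. This 1.46-fold decrease (log2 fold change −0.55, SE 0.0565, edgeR adjusted p = 1.3e-05) left a wide gap between the groups. Cyt-c1 (FBgn0035600, 3L, 5360211 to 5362798), the haem subunit that hands the electrons to cytochrome c, was at 743, 730, 701 and 744 CPM in REPTOR[ACT], against 1003, 971, 1066 and 1045 CPM in control. It fell by 0.49 on the log2 scale (SE 0.055, edgeR adjusted p = 2.8e-05). Both nuclear redox subunits of complex III were therefore among its 3 largest decreases.

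UQCR-Q (FBgn0036728, 3L, 17474761 to 17476124), the fly counterpart of the ubiquinone-binding subunit QCR8 of yeast, went against the rest. Its level was 825, 894, 736 and 772 CPM in REPTOR[ACT], against 651, 605, 609 and 569 CPM in control. Every REPTOR[ACT] library lay above every control library, and the log2 fold change was 0.41 (SE 0.072, edgeR adjusted p = 8.0e-04), the highest of all 32 members. The increase was present in each of the 4 same-numbered pairs, by 0.27 to 0.56 on the log2 scale.

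The 2 large core subunits, which face the matrix and are needed for the complex to form, parted. UQCR-C2 fell by 0.41 on the log2 scale (SE 0.071, edgeR adjusted p = 7.2e-04), with 650 to 790 CPM in REPTOR[ACT] and 882 to 997 CPM in control. UQCR-C1 was not called (log2 fold change −0.013, SE 0.064, edgeR adjusted p = 0.885), with 935 to 1089 CPM in REPTOR[ACT] and 983 to 1035 CPM in control. The small subunit UQCR-6.4 was not called either (−0.13). Whether UQCR-C1 and UQCR-C2 responded differently was not tested.

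The other 2 decreases in complex III were less firm. UQCR-11, the hinge protein that helps cytochrome c1 dock cytochrome c, fell by 0.37 on the log2 scale (SE 0.121, edgeR adjusted p = 0.029). Its levels, printed here after they were seen, were 178, 188, 174 and 196 CPM in REPTOR[ACT], against 179, 243, 245 and 286 CPM in control. Control replicate 1 lay within the REPTOR[ACT] range, and the call was lost without REPTOR[ACT] replicate 1, 2 or 3 or control replicate 2, 3 or 4, each left out alone, with adjusted p-values up to 0.082. UQCR-14, a matrix-side subunit, fell by 0.25 (SE 0.082, edgeR adjusted p = 0.029), with 545 to 635 CPM in REPTOR[ACT] and 624 to 807 CPM in control. The groups overlapped, and the call was lost without REPTOR[ACT] replicate 1, 3 or 4 or control replicate 3 or 4 (adjusted p up to 0.095). All 523 exon bases of UQCR-14 also belong to CG32576 on the opposite strand, which was counted at 25.5 CPM in REPTOR[ACT] and 21.5 CPM in control, and how strand was handled in counting is not given.

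Cytochrome c itself did not pass the test. Cyt-c-p (FBgn0284248, 2L, 16719932 to 16722644), which carries electrons from complex III to complex IV, was at 942, 1026, 808 and 871 CPM in REPTOR[ACT], against 935, 915, 909 and 852 CPM in control. The REPTOR[ACT] libraries spread over both sides of the control libraries (log2 fold change 0.014, SE 0.076, edgeR adjusted p = 0.896). Cyt-c-d, the cytochrome c gene of the male germ line, stood at 0.0380 to 0.465 CPM over all 8 libraries.

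In complex IV, 4 of 9 genes fell and 0 rose, where 19.4% of all genes tested fell and 24.8% rose. The share called, 44.4%, was near the 44.2% of all genes tested. The 4 that fell were COX5B, COX4, cype and COX5A, and for each of them the groups did not overlap. COX5B (FBgn0031830, 2L, 6557800 to 6559308), a zinc-binding subunit on the matrix side, was at 490, 486, 432 and 465 CPM in REPTOR[ACT], against 697, 695, 733 and 720 CPM in control. It fell 1.52-fold (log2 fold change −0.60, SE 0.059, edgeR adjusted p = 9.1e-06), the largest decrease of the 32 members.

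COX4 (FBgn0032833, 2L, 19958713 to 19960065), the largest nuclear subunit of the complex and the one through which ATP inhibits it in mammals, was at 704, 697, 632 and 691 CPM in REPTOR[ACT]. The 4 control libraries were almost identical, at 1026, 1029, 1029 and 1031 CPM. The log2 fold change was −0.59 (SE 0.055, edgeR adjusted p = 5.8e-06), the smallest adjusted p among the members.

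The decreases of cype and COX5A were smaller. The gene cype (FBgn0015031, 2L, 5327227 to 5327969), the fly form of COX6C, was at 367, 378, 336 and 368 CPM in REPTOR[ACT], against 434, 442, 453 and 496 CPM in control. Its log2 fold change was −0.33 (SE 0.064, edgeR adjusted p = 0.0014). COX5A (FBgn0019624, 3R, 11819359 to 11820299), a matrix-side subunit that joins early in assembly, was at 530, 568, 495 and 529 CPM in REPTOR[ACT], against 606, 660, 651 and 689 CPM in control. Its log2 fold change was −0.30 (SE 0.064, edgeR adjusted p = 0.0028).

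The 5 complex IV genes that were not called lay close to 0. They were levy, the fly COX6A gene (−0.11), COX6B (−0.095), COX7C (−0.044), COX7A (−0.033) and COX8 (0.070), with edgeR adjusted p-values of 0.198 to 0.790. In each of them the groups overlapped. No setting tried gave any of the 5 a call.

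**Figure D2:**
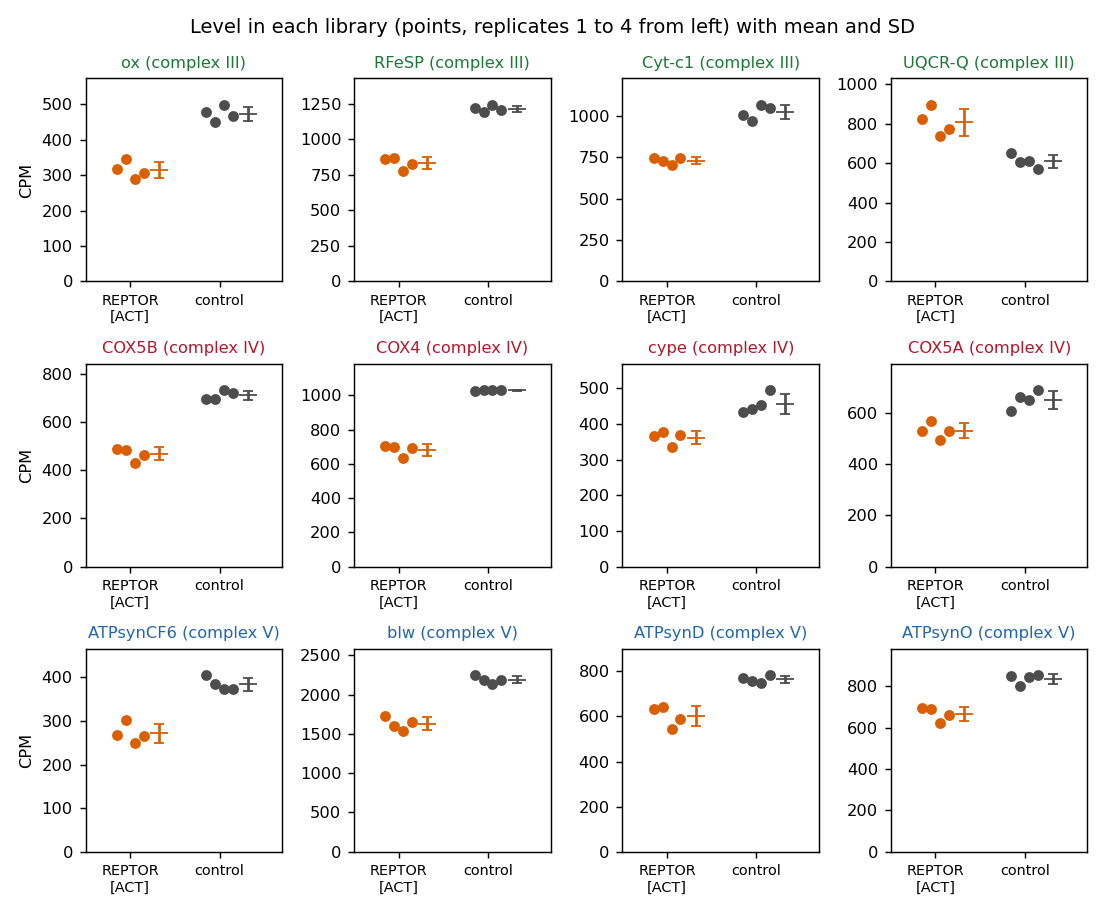
Level in each of the 8 libraries (CPM, axis from 0) for the 4 called members with the largest absolute change in each complex, REPTOR[ACT] left of control, with mean and SD (n = 4 each) beside the points. In all 12 genes the 2 groups are separate, and only for UQCR-Q do the REPTOR[ACT] libraries lie above, at 736 to 894 CPM against 569 to 651 CPM.

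In complex V, 6 of 13 genes fell and 1 rose, where 19.4% of all genes tested fell and 24.8% rose. The calls were mixed within the structural parts of the enzyme. The catalytic head is a ring of alternating alpha and beta subunits around the gamma shaft, the delta and epsilon subunits sit at the foot of that shaft, a ring of c subunits turns in the membrane, and a peripheral stalk of subunits b, d, F6 and OSCP holds the head still.

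In the head, the alpha subunit gene blw (bellwether, FBgn0011211, 2R, 22799099 to 22802180) was at 1735, 1602, 1543 and 1649 CPM in REPTOR[ACT], against 2249, 2190, 2135 and 2191 CPM in control. Its log2 fold change was −0.42 (SE 0.056, edgeR adjusted p = 8.5e-05). The beta subunit gene ATPsynbeta, which carries the catalytic sites and had the highest level of the 32 members, did not follow. It stood at 3661, 3687, 3043 and 3498 CPM in REPTOR[ACT], against 3426, 3681, 3422 and 3727 CPM in control, with a log2 fold change of −0.038 (SE 0.071, edgeR adjusted p = 0.695).

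Because alpha and beta enter the head in equal number, their reads were also compared within each library. There were 0.474, 0.434, 0.507 and 0.471 reads of blw per read of ATPsynbeta in REPTOR[ACT], against 0.657, 0.595, 0.624 and 0.588 in control. All REPTOR[ACT] libraries lay below all control libraries, with 0.472 ± 0.0297 and 0.616 ± 0.0313 (SD, n = 4 each). The log2 difference was −0.39 and the exact two-sided permutation p was 0.0286, the smallest that 4 against 4 libraries can give. In the paired form, the exact sign permutation of the 4 pair differences gave p = 0.125, again the smallest possible. These are ratios of reads, not of transcripts, since the 2 mRNAs differ in length.

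The shaft gene ATPsyngamma rose. Its level was 609, 618, 532 and 598 CPM in REPTOR[ACT], against 471, 509, 471 and 517 CPM in control, so the groups did not overlap (log2 fold change 0.26, SE 0.066, edgeR adjusted p = 0.0077). ATPsyndelta fell by 0.26 on the log2 scale (SE 0.056, edgeR adjusted p = 0.0033), with 358 to 397 CPM in REPTOR[ACT] and 432 to 462 CPM in control. The epsilon subunit gene sun (stunted), whose protein in flies is also a circulating ligand of the receptor Methuselah, was not called (0.038). ATPsynC, the single gene for the c ring, had a log2 fold change of 0.15 and just missed the threshold (edgeR adjusted p = 0.051). It was higher in all 4 same-numbered pairs and was called with the replicate block (adjusted p = 0.024), with limma-voom (0.046), without REPTOR[ACT] replicate 3 (0.031) and without control replicate 1 (0.036). Over the 16 alternative settings its adjusted p was 0.024 to 0.181.

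Of the 4 peripheral stalk genes, 3 fell, where 19.4% of all genes tested fell. ATPsynCF6 (FBgn0016119, 3R, 23355220 to 23356064), for subunit F6, was at 269, 303, 249 and 266 CPM in REPTOR[ACT], against 405, 384, 374 and 372 CPM in control. At a log2 fold change of −0.50 (SE 0.069, edgeR adjusted p = 1.2e-04), it was the largest decrease of complex V. ATPsynD (FBgn0016120, 3R, 19095000 to 19096271), for subunit d, was at 635, 644, 545 and 587 CPM in REPTOR[ACT], against 771, 757, 750 and 783 CPM in control. It fell by 0.34 on the log2 scale (SE 0.064, edgeR adjusted p = 0.0011). ATPsynO (FBgn0016691, 3R, 15265591 to 15266690), for OSCP, the subunit that joins stalk and head, was at 697, 688, 621 and 663 CPM in REPTOR[ACT], against 848, 801, 844 and 854 CPM in control. Its log2 fold change was −0.33 (SE 0.058, edgeR adjusted p = 7.9e-04), and for all 3 genes the groups were separate.

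ATPsynB, for subunit b of the same stalk, did not fall. Its levels, picked out after they were seen, were 847, 846, 604 and 619 CPM in REPTOR[ACT], against 594, 566, 626 and 567 CPM in control. REPTOR[ACT] replicates 1 and 2 stood far above all other libraries, while replicates 3 and 4 lay within the control range. The log2 fold change of 0.31 (SE 0.116) had an edgeR adjusted p of 0.052, or 0.013 without REPTOR[ACT] replicate 3 and 0.022 without REPTOR[ACT] replicate 4. With all libraries it was also called by DESeq2 (adjusted p = 0.049) and with total library size as the only scaling (0.039). With the replicate block the adjusted p was 0.093.

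Among the membrane subunits e, f and g, which lie where 2 ATP synthases join into a dimer, ATPsynG fell by 0.25 on the log2 scale (SE 0.082, edgeR adjusted p = 0.028), with 465 to 520 CPM in REPTOR[ACT] and 535 to 680 CPM in control. The groups did not overlap, but the call was lost without REPTOR[ACT] replicate 1 or 3 or control replicate 3 or 4, and with total library size as the only scaling (adjusted p up to 0.091). ATPsynE (0.045) and ATPsynF (0.20, edgeR adjusted p = 0.104) were not called. ATPsynF was higher in all 4 pairs and was called with the replicate block (adjusted p = 0.016).

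**Figure D3:**
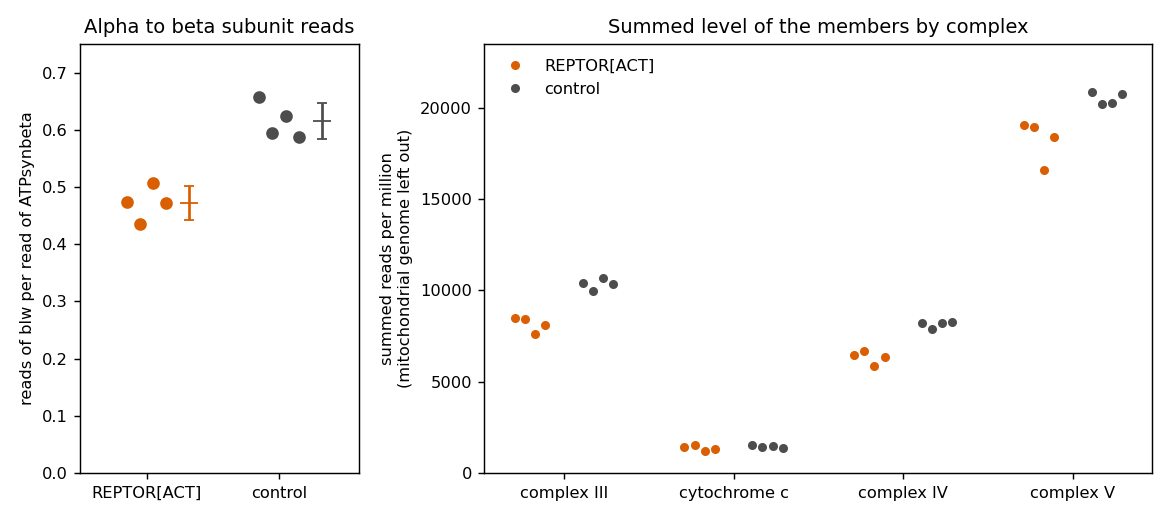
Left, reads of blw per read of ATPsynbeta in each library, with mean and SD (n = 4 each): 0.434 to 0.507 in REPTOR[ACT] against 0.588 to 0.657 in control. Right, summed reads of the members of each complex per 1e6 reads outside the mitochondrial genome, 1 point per library; the groups are separate for complexes III, IV and V and overlap for cytochrome c.

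Summed over members, the differences were larger for complexes III and IV than for complex V. Per 1e6 reads outside the mitochondrial genome, complex III genes took 8164 ± 403 reads in REPTOR[ACT], against 10347 ± 310 in control (SD, n = 4 each), a log2 difference of −0.34. Complex IV genes took 6326 ± 352 in REPTOR[ACT], against 8138 ± 158 in control (−0.36), and complex V genes 18249 ± 1148 in REPTOR[ACT], against 20528 ± 341 in control (−0.17). Per 1e6 reads of the whole library the differences were smaller, at −0.24, −0.26 and −0.068 for complexes III, IV and V, and complex V then overlapped between the groups. These sums are descriptions with no test, and a few abundant members such as ATPsynbeta weigh most in them.

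The spread between libraries had its own pattern. REPTOR[ACT] replicate 3 had the lowest value of its group in 29 of 32 members and REPTOR[ACT] replicate 2 the highest in 20. The median log2 difference within same-numbered pairs was −0.12, −0.099, −0.31 and −0.25 for replicates 1 to 4, with 21, 17, 27 and 23 of the 32 members lower in REPTOR[ACT]. Across all genes, the second principal component (11.2% of variance) also set replicates 1 and 2 of both groups apart from replicates 3 and 4, and the labels name no batch for this. Without REPTOR[ACT] replicate 3, 13 members fell and 4 rose.

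Levels per length put the members of a complex on one scale, as CPM per kb of the Ensembl canonical transcript. In control, complex III ran from 1429 ± 61.2 for ox and 1362 ± 146 for UQCR-14, whose ranges overlapped, to 461 for UQCR-6.4 (SD, n = 4). The range of UQCR-6.4 overlapped that of the next gene up, UQCR-11 (470 ± 87.3). The position of UQCR-11 rests on a canonical transcript of 506 bases, and over its 1613 exon bases it was at 148. Complex IV ran from 1223 ± 25.3 for levy, clear of the next gene cype, to 113 ± 9.35 for COX7A. In complex V, ATPsynbeta at 1714 ± 147 in REPTOR[ACT] and 1759 ± 80.4 in control stood clear of ATPsynO, blw and ATPsynC, which were at 1043, 973 and 962 in control and overlapped each neighbour in that order. The low position of ATPsyndelta (99.1 ± 4.21 in REPTOR[ACT] and 118 ± 3.55 in control) rests on a canonical transcript of 3817 bases. Across the 32 members the log2 fold change went only weakly with control level per length (Spearman rho −0.26) and with transcript length (−0.032), both descriptions over genes that share the same libraries.

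**Figure D4:**
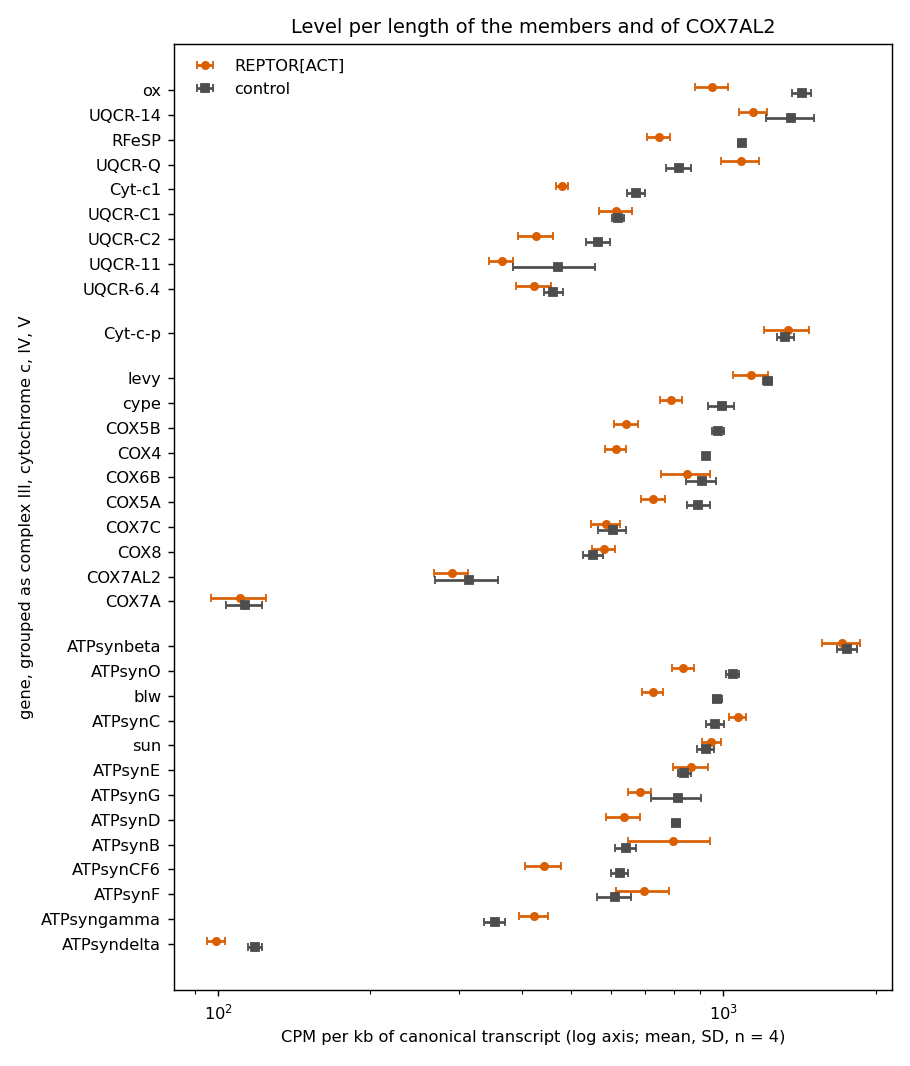
Level per length of the 32 members and of the paralogue COX7AL2, as CPM per kb of canonical transcript on a log axis, mean and SD of 4 libraries, REPTOR[ACT] above control in each row. ATPsynbeta is highest at 1714 in REPTOR[ACT] and 1759 in control, and in complex IV COX7AL2 (290 and 313) lies above COX7A (110 and 113).

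The low level of COX7A had a counterpart in a paralogue. COX7A was at 59.8, 56.8, 74.0 and 59.5 CPM in REPTOR[ACT], against 71.8, 61.9, 60.1 and 62.1 CPM in control, while COX7AL2 (FBgn0085201, 2L, 2192525 to 2197912) was at 257, 267, 222 and 258 CPM in REPTOR[ACT], against 227, 262, 275 and 321 CPM in control. COX7AL2 thus exceeded COX7A in every library, also per length, and was not called (log2 fold change −0.11, SE 0.100, edgeR adjusted p = 0.394). Of 18 paralogues listed, many of them testis genes in flies, 4 passed the filter on low counts and 1, COX7AL, fell (−1.39, edgeR adjusted p = 0.0029), at 0.230 to 1.19 CPM. The paralogues other than COX7AL2 stayed below 2 CPM. How reads that match several genes were counted is not given, so small amounts shared between copies are uncertain.

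The genes listed as assembly factors of these complexes also fell in part. Of 19 genes listed, 18 were tested, and 11 fell and 1 rose, where 19.4% of all genes tested fell and 24.8% rose. Their median log2 fold change was −0.34, against −0.0090 for all genes tested. The list and these values include CG34423 (0.57) and CG13551 (0.26), which were not called. They are counterparts of the inhibitor of ATP synthase and do not build a complex. Their roles are known mainly from yeast and human cells. For complex III, CG4908 (Bcs1), which inserts the Rieske protein, fell by 1.06 on the log2 scale, Ttc19, which clears its cleaved fragments, by 0.79, and CG10075 (Uqcc1), a factor for cytochrome b, by 0.30. Cchl, which attaches haem to cytochrome c and cytochrome c1, fell by 0.46.

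For complex IV, Cox10, which makes haem O on the way to the haem A of the enzyme, was at 90.6 ± 1.13 CPM in REPTOR[ACT] and 164 ± 8.47 CPM in control (SD, n = 4 each), a log2 fold change of −0.85 (SE 0.057, edgeR adjusted p = 5.3e-07). l(3)87Df, which matched the name COX20, a chaperone of the subunit CoII, fell by 0.95, Coa8 by 0.82, CG4957 by 0.70, the copper chaperones Cox17 and Scox by 0.62 and 0.32, and Surf1, which acts in haem A insertion, by 0.35. The 1 that rose was OXA1L (0.46), the insertase that places membrane subunits from the matrix side. Ccdc56 had 0 reads in all 8 libraries. How reads that match several genes were counted is not given, and whether this gene is silent was not tested. None of the 12 calls in the assembly factor list was lost in any of the 16 alternative settings.

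The partner subunits from the mitochondrial genome were lower by more. All 6 fell: mt:Cyt-b of complex III by 1.13 on the log2 scale, mt:CoI, mt:CoII and mt:CoIII of complex IV by 0.996, 1.10 and 0.88, and mt:ATPase6 and mt:ATPase8 of complex V by 0.97 and 1.31. The gene mt:ATPase8 is 162 bases long and overlaps mt:ATPase6. It averaged only 7.85 CPM in REPTOR[ACT] and 19.5 CPM in control, against 4978 and 9769 CPM for mt:ATPase6. How reads were divided between these overlapping genes is not given, so the change of mt:ATPase8 is uncertain. For mt:Cyt-b, control replicate 1 stood at 11573 CPM, within the REPTOR[ACT] range of 11200 to 12826 CPM, against 27316 to 32706 CPM in the other controls, and its call was lost in 8 of 16 alternative settings, the replicate block among them (adjusted p = 0.070). The call of mt:ATPase6 was lost with the replicate block (adjusted p = 0.054), and its log2 difference was −0.18 in pair 1, against −1.50 to −0.98 in the other pairs.

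The complexes upstream showed a like mixture. Of 35 genes chosen by a complex I symbol, 33 were tested. The symbol rule also took in the like-named ND-51L1, which was too low to test. In the 33, 19 fell (57.6%) and 3 rose (9.09%), against 19.4% and 24.8% of all genes tested, with a median of −0.23. In complex II, which has no mitochondrially encoded subunit, the log2 fold change was −1.16 for SdhA and −0.63 for SdhB, which both fell, while SdhC (0.032) and SdhD (−0.12) were not called. Among 4 regulators of respiratory genes, srl (spargel), the fly PGC-1 gene, rose by 0.97 on the log2 scale (mean 19.2 CPM in REPTOR[ACT] and 9.77 CPM in control, with no overlap of the groups). ERR, the oestrogen-related receptor, fell by 0.22 (edgeR adjusted p = 0.048), a call lost in 8 of the 16 settings, and ewg and Ets97D were not called.

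**Figure D5:**
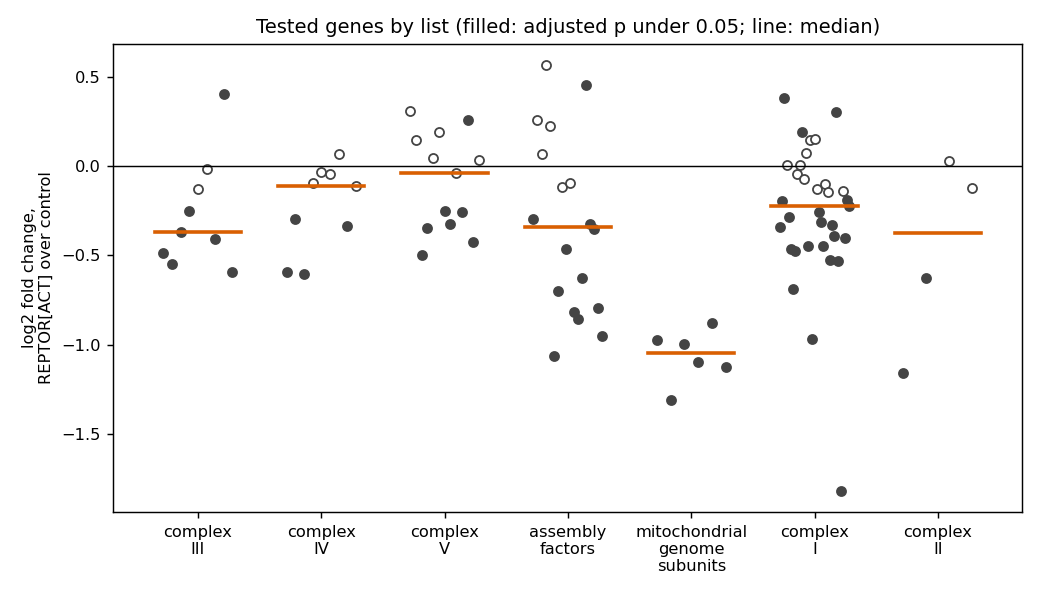
Log2 fold change, REPTOR[ACT] over control, of every tested gene of complexes III, IV and V, of the assembly factor list, of the mitochondrially encoded subunits, and of complexes I and II. Filled points passed an adjusted p of 0.05, open points did not, and the line is the median, which is −0.37, −0.11 and −0.038 for complexes III, IV and V and −1.05 for the mitochondrially encoded subunits.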

How the data were processed

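Thoraces of 2 genotypes were profiled with 4 libraries each, grouped by the labels. Per the study's methods the authors prepared poly-A libraries (KAPA mRNA HyperPrep), split them into 4 pools, sequenced single reads on a NextSeq and used STAR 2.7.2b with the FlyBase dmel r6.30 genome. The labels name a TruSeq kit, a HiSeq2000 and the mouse build mm10 instead, and a shorter hold at 18 °C than the methods. Not given in the sources used here: what counted the reads, whether by strand, and how multiply matching reads were treated.

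The authors deposited expected counts, 1 value per gene and library with no depth scaling. All values were multiples of 0.25 (within 1e-06), and after multiplication by 4 all were whole and were used as reads, 26.79 to 50.03 M per library, so that 3 reads, the limit a count of 0 allows, equal 0.0600 to 0.112 CPM (counting error only). That the deposited values are means over the 4 pools is inferred from the methods and the values, and the depths rest on it. No library was a copy of another: between libraries of a group the chi-square of the counts was 20.4 to 148 times that of counting error.

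The 9903 genes kept by filterByExpr were tested with edgeR 4.0.16 (TMM factors, robust quasi-likelihood, Benjamini-Hochberg over all 9903, all 8 libraries, no covariate). SE is the absolute log2 fold change over the root of F. Levels are CPM on TMM-scaled library sizes. The alternatives were 16: other scalings and filters, DESeq2 1.42.0, limma-voom 3.58.1, a replicate block and each library left out in turn. Same-numbered libraries deviated together (correlations 0.138, 0.433, 0.220 and 0.137, all over 0.1). For replicates 3 and 4, though, the correlation with a differently numbered library reached 0.221. The numbers were therefore used as pairs in the replicate block and in the pair differences only. The main fit, its calls and its SEs leave pairing out.

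Values in every library are given for up to 4 called members per complex with the largest absolute change and for Cyt-c-p, and all other members by their log2 fold change. The levels per library of UQCR-11, ATPsynbeta, ATPsyngamma, ATPsynB, COX7A and COX7AL2 are shown by choice after they were seen. Members and lists were chosen with earlier results of these data known. Of the alternative names in the assembly list, 11 matched no gene. Coordinates, transcript lengths and exon overlaps came from Ensembl BDGP6.54. R 4.3.3 and Python 3.11.15 were used.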

Additional observations from a re-analysis of the deposited data

Results flagged for a closer look

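Of 76 groups of 4 libraries examined for a library far from the other 3, 1 was flagged. Chance alone gives about 1 in 20, or 3.8 of the 76, so 1 flag is fewer than chance would give. The summed complex V reads per 1e6 reads of the whole library were 14513 in control replicate 1, against 12015 to 12437 in the other 3 control libraries. That library also had the lowest share of mitochondrial reads of the controls, 30.4% against 38.7 to 42.2%. Per 1e6 reads outside the mitochondrial genome it stood at 20860, against 20185 to 20780 in the other 3.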

How the results depend on the processing

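Of the 18 members called, 15 kept their call in all 16 alternative settings, and 3 (UQCR-11, UQCR-14 and ATPsynG) lost it in at least 1. Another 3 (ATPsynB, ATPsynC and ATPsynF) were called in at least 1 setting, and none of the 32 members turned its direction while called. The count of members that fell was 15 or 16 over the settings with all libraries and 13 to 16 with 1 library left out. The count that rose was 2 to 3 over those with all libraries except the replicate block, which gave 4 (ATPsynC and ATPsynF were added), and 2 to 4 with 1 library left out, the 4 without REPTOR[ACT] replicate 3. The members' median stayed between −0.21 and −0.14. For the ratio of blw to ATPsynbeta, the paired form (replicate block) gave the same log2 difference of −0.39 with an exact p of 0.125, and leaving out 1 library gave −0.42 to −0.35, where an exact permutation p cannot go below 0.0571. Summed levels per 1e6 reads without the mitochondrial genome gave log2 differences of −0.34, −0.36 and −0.17 for complexes III, IV and V, against −0.24, −0.26 and −0.068 per 1e6 reads of the whole library, because control libraries 2 to 4 held more mitochondrial reads. Depth limits none of the members, which had 1579 to 176367 reads per library, while most paralogues were too low to test.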
